A study of Mus musculus with 11 samples.

Results

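Otospheres, the floating spheres that cells dissociated from the neonatal cochlea form in suspension, were compared across all genes with the tissue they came from, the native cochlear sensory epithelium (CSE). Members were chosen by array title: 6 arrays titled OS1 to OS6 and 3 titled CSE1 to CSE3, 9 of the 11 arrays of the series, the other 2 being mouse embryonic stem cells (ESCs), which entered the fit as a further group. CSE was dissected from wild-type ICR mice at postnatal day 1, with 10 mice and 20 cochleae pooled per preparation, was freed of spiral ligament and stria vascularis, and was not cultured. Otospheres came from the same strain and age: CSE was digested with trypsin, and the cells were grown for 4 or 5 days in low-attachment wells, passaged once and grown for another 4 or 5 days. A 100 µm strainer was used before RNA isolation to collect spheres of the solid type. Their medium held N2, B27, bFGF at 10 ng/ml, IGF1 at 50 ng/ml and heparan sulfate. Treatment, time in culture and the selection of spheres therefore differ together between the groups, and their effects cannot be told apart. OS1 was nearly identical to OS2, and OS4 to OS5, so each such pair was averaged, which left 4 otosphere samples and 3 CSE samples. The labels do not say which samples came from separate preparations, so the p-values measure the spread between these samples, part of which may be technical.

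The cochlear sensory epithelium carries sound into the nervous system. Its hair cells turn movement of their bundles into electrical signals, supporting cells surround them and secrete the tectorial membrane that lies above the bundles, and Notch signalling between neighbours decides in development which cell takes which fate. Mammalian supporting cells of newborn animals can still divide and form hair cells when they are isolated, an ability that is lost as the organ matures, and sphere formation is the usual assay of it. The tissue as dissected also holds neurites and glia of the spiral ganglion, vessels, blood, macrophages and mesenchyme.

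The arrays carried 55681 probes besides controls, of which 47997 passed the filter on dim probes. Genes were read from 1 probe each, the brightest one, which gave 18565 named genes. Values are log2 signals after quantile normalization, and a difference is otospheres minus CSE on that scale, so that 1 unit is a 2-fold change. Spots well above background made up 58.5% to 68.2% of an otosphere array and 60.0% to 71.6% of a CSE array, and no spot was saturated. OS1 to OS3, CSE1 and CSE2 lay on slide 1, and OS4 to OS6 and CSE3 on slide 2. Over bright probes, those with a mean log2 signal above 9, the SD of the OS1 minus OS2 difference came to 1.03 times the scatter among repeated spots, and that of OS4 minus OS5 to 0.448 times. All other pairs within a group reached at least 1.89 times.

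At an adjusted p under 0.05 (limma), 1326 of the 18565 genes, or 7.14%, rose in otospheres and 1917, or 10.3%, fell. Over all 47997 probes 2321 rose (4.84%) and 2973 fell (6.19%). The probe rises numbered 1412 without OS4 with OS5, 1281 without CSE1, 1534 without CSE2 and 1377 without CSE3, and the probe falls 1664 without CSE1 and 1836 without CSE3. The shares over genes are the background for every count below. The change exceeded 2-fold for 1070 of the rises and 1517 of the falls, 8-fold for 171 and 278, and 32-fold for 48 and 36. Falls were thus more frequent, while the rises held more of the very large changes. Over all genes the median difference was -0.01, and the median SD between samples was 0.26 in otospheres and 0.25 in CSE over the kept probes.

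**Figure D1:**
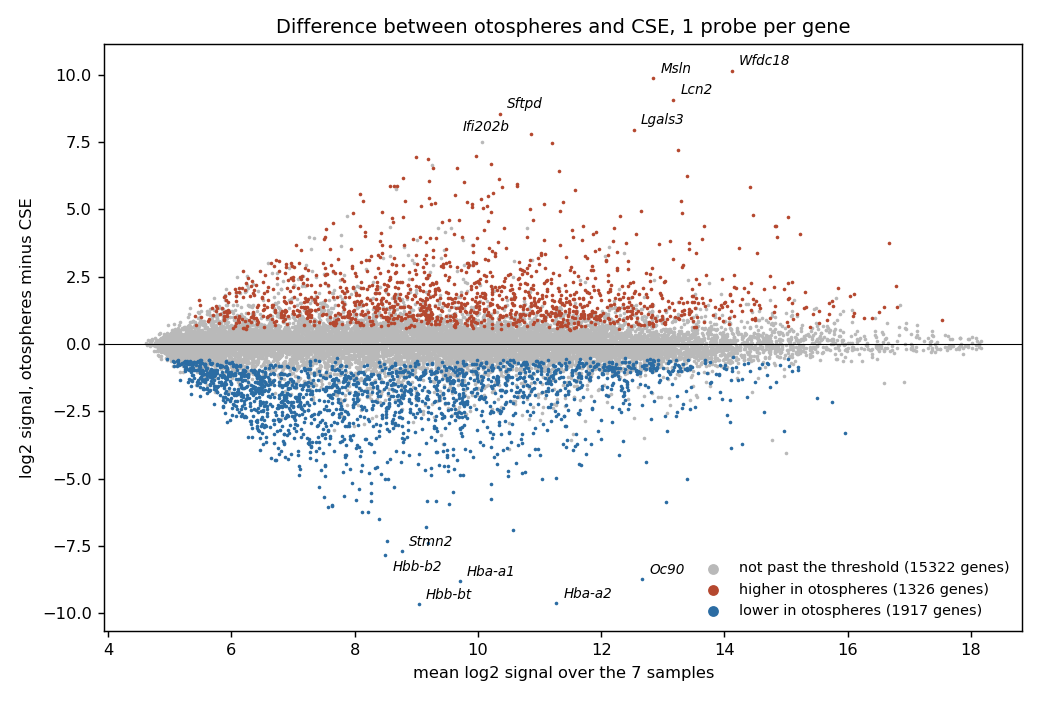
Each point is a gene, with its mean log2 signal over the 7 samples on the horizontal axis and its log2 difference, otospheres minus CSE, on the vertical axis, coloured by whether it passed the threshold. The 1326 rises lie at mean signals of 5.41 to 17.53 and the 1917 falls at 4.96 to 15.96, and the 6 largest of each direction are named.

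The 15 largest rises included the secreted proteins Sftpd, Lcn2, Slpi and Cst6, the keratin Krt17 and the muscle genes Ankrd1 and Mybpc2. Sftpd, a collectin of the lung lining, had log2 signals of 15.57 in OS1 with OS2, 14.92 in OS3, 14.25 in OS4 with OS5 and 11.35 in OS6, against 6.36, 5.02 and 5.02 in CSE1 to CSE3. OS6 was the lowest otosphere sample for Sftpd, and the difference between the groups was 8.56 (SE 1.08, adjusted p = 0.00149). Lgals3, the lectin galectin-3, had log2 signals of 15.34, 14.14, 16.83 and 17.43 in the otosphere samples in the same order and of 7.99, 7.66 and 8.29 in CSE, a difference of 7.95 (SE 0.69, adjusted p = 2.49e-04). Here OS6 was the highest sample. Slpi, an inhibitor of leukocyte proteases, rose by 7.48 (adjusted p = 1.13e-04) and Cst6, a cysteine protease inhibitor of epithelia, by 7.20 (adjusted p = 1.39e-04). Gdf15, a stress-induced cytokine, was at 12.36, 10.35, 13.88 and 15.26 in otospheres against 5.98, 5.41 and 6.51 in CSE. Otosphere and CSE means were 12.96 and 5.97 (SE of the difference 1.04, adjusted p = 0.0032), and the samples of slide 2 were the highest. Annexin 3 (Anxa3), a membrane-binding protein, had values of 13.59 to 14.35 in otospheres and of 7.25 to 7.93 in CSE, a difference of 6.43 (adjusted p = 4.58e-05). The others among the 15 largest rises were Wfdc18, Msln, Lcn2, Ifi202b, Ankrd1, Fshb, Mybpc2, Vnn1 and Krt17, with differences of 6.52 to 10.15. Fshb encodes the pituitary hormone subunit and Mybpc2 a muscle protein, and each of them, read from 1 probe, rose with little spread between samples, by 6.87 (SE 0.29) and 6.68 (SE 0.32).

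The 15 largest falls included 5 globin genes, the axonal genes Stmn2 and Stmn3 and the supporting cell gene Hes5. Hbb-bt, a beta globin of red blood cells, had log2 signals of 4.84 to 5.01 in otospheres against 14.32, 15.28 and 14.06 in CSE, and was well above background on none of the otosphere arrays. Hes5, a Notch effector of supporting cells, had log2 signals of 5.81, 5.34, 6.27 and 6.70 in the otosphere samples and of 13.59, 12.89 and 13.72 in CSE. The difference was -7.37 (SE 0.38, adjusted p = 2.37e-05). Crabp1, a carrier of retinoic acid, was at 5.14 to 5.95 in otospheres and at 11.87 to 13.72 in CSE, a difference of -7.30 (adjusted p = 5.71e-05). Fzd10, a Wnt receptor, fell by 6.49 (adjusted p = 8.13e-05), with 4.64 to 6.33 in otospheres and 11.67 to 12.35 in CSE. Ttr, the carrier of thyroid hormone and retinol, had 5.06, 5.17, 6.51 and 5.47 in otospheres against 11.77, 11.52 and 12.03 in CSE, and was well above background on 1 of the 6 otosphere arrays. Stmn2 and Stmn3, microtubule proteins of growing axons, fell by 7.69 and 6.80, and Fabp7, a fatty acid carrier of immature glia, by 6.91. Vstm2l fell by 6.01. Hba-a1 and Hba-a2, and likewise Hbb-bt, Hbb-b2 and Hbb-bs, are near-identical copies whose probes may share transcripts, so their 5 falls are not separate measurements.

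**Figure D2:**
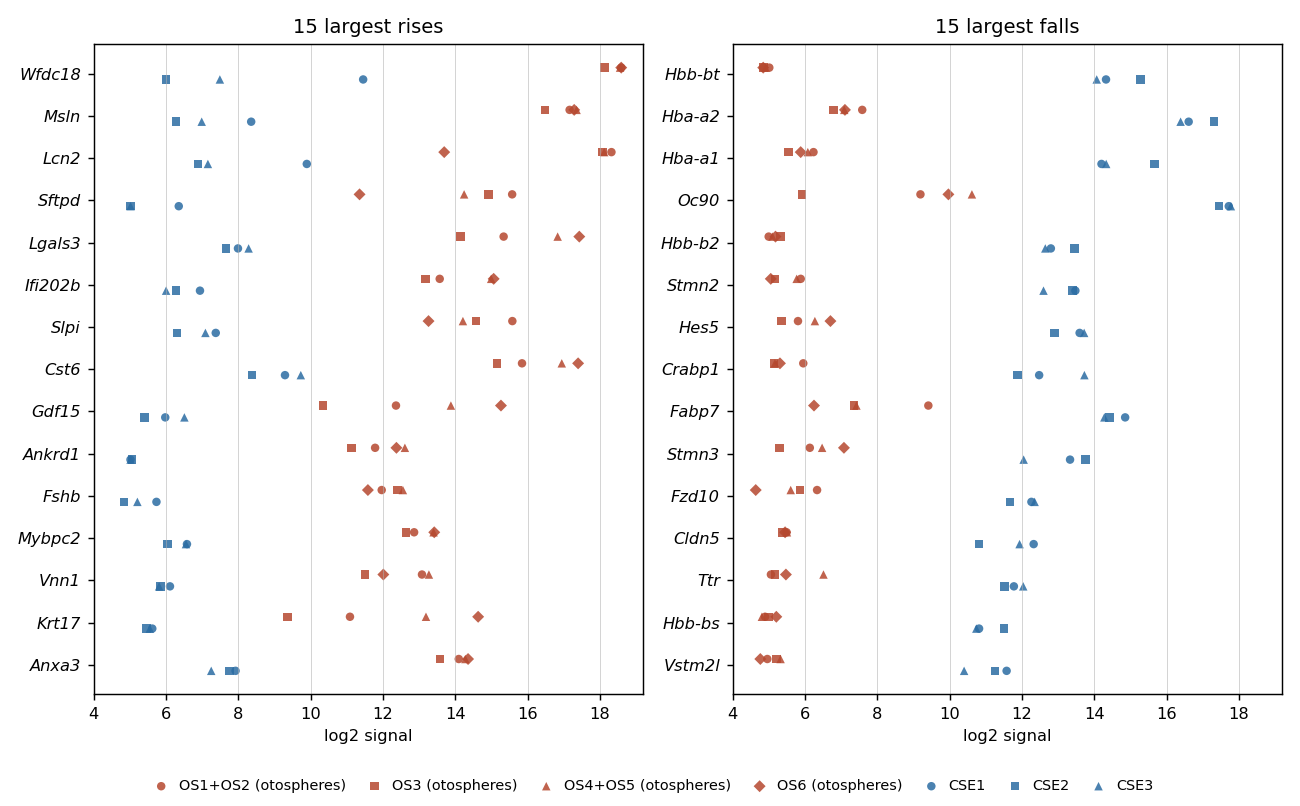
Log2 signal of the 15 genes with the largest rises (left) and the 15 with the largest falls (right), with a point for each of the 4 otosphere samples and the 3 CSE samples. The genes were chosen among those whose groups do not overlap (14.1% of all genes with otospheres higher and 19% with otospheres lower), so nothing is read from the gap itself. Among the rises Lcn2, Sftpd, Gdf15 and Krt17 vary most between otosphere samples.

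Some genes crossed the limit of detection. Of the 18565 genes, 56 were well above background on all 6 otosphere arrays and on no CSE array, 208 on all 3 CSE arrays and on no otosphere array, and 13583 on all 9. Of the 1120 well above background on none of the 9 arrays, 0 passed the threshold. For genes well above background on no array of 1 group but on some of the other, a fold is given as a bound. Each array of the dim group is set to the faintest signal that still counts as detected there. Where the gene's own signal is higher, that signal is kept, so a bound can equal the measured fold. Ankrd1, a muscle and YAP-responsive ankyrin protein, was the brightest of the genes seen in otospheres alone, with 11.78, 11.13, 12.61 and 12.37, and was at least 114-fold higher there. Pmaip1, the p53 target Noxa that promotes cell death, was at least 71.1-fold higher, and Ptgs2, the inducible cyclooxygenase, at least 38.4-fold. Over the alternative fits the log2 difference of Ptgs2 ranged from 0.63 to 8.07. Reg3g, an antimicrobial lectin, was at 12.13, 13.63, 10.02 and 6.07 in otospheres. Its bound of 39.1-fold rests on a call (adjusted p = 0.044) that held in the fit without OS6. The call was lost in every other fit without a sample (adjusted p up to 0.131). In the other direction, beside the globins, Serpina3a was at least 59.6-fold lower in otospheres and Cpne6, a calcium-binding protein of neurons, at least 48.9-fold lower.

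Gene lists were then read for how many members passed the threshold in each direction. They are described by these counts and by the median difference of their members, beside 7.14% higher, 10.3% lower and a median of -0.01 over all genes. The lists of neurons, tectorial and otic matrix, vessels, supporting cells and macrophages had the most negative medians or shares of falls. Plasminogen activation, complement and acute phase, interferon response and the stress responses stood at the other end. Where a list had 0 members called in a direction by limma, at most 3 of its members reached an unadjusted p under 0.05 in that direction, apart from 5 olfactory and vomeronasal receptors. RNA of whole tissue and whole spheres was measured, so fewer cells of a type and less RNA per cell cannot be told apart in any of them.

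**Figure D3:**
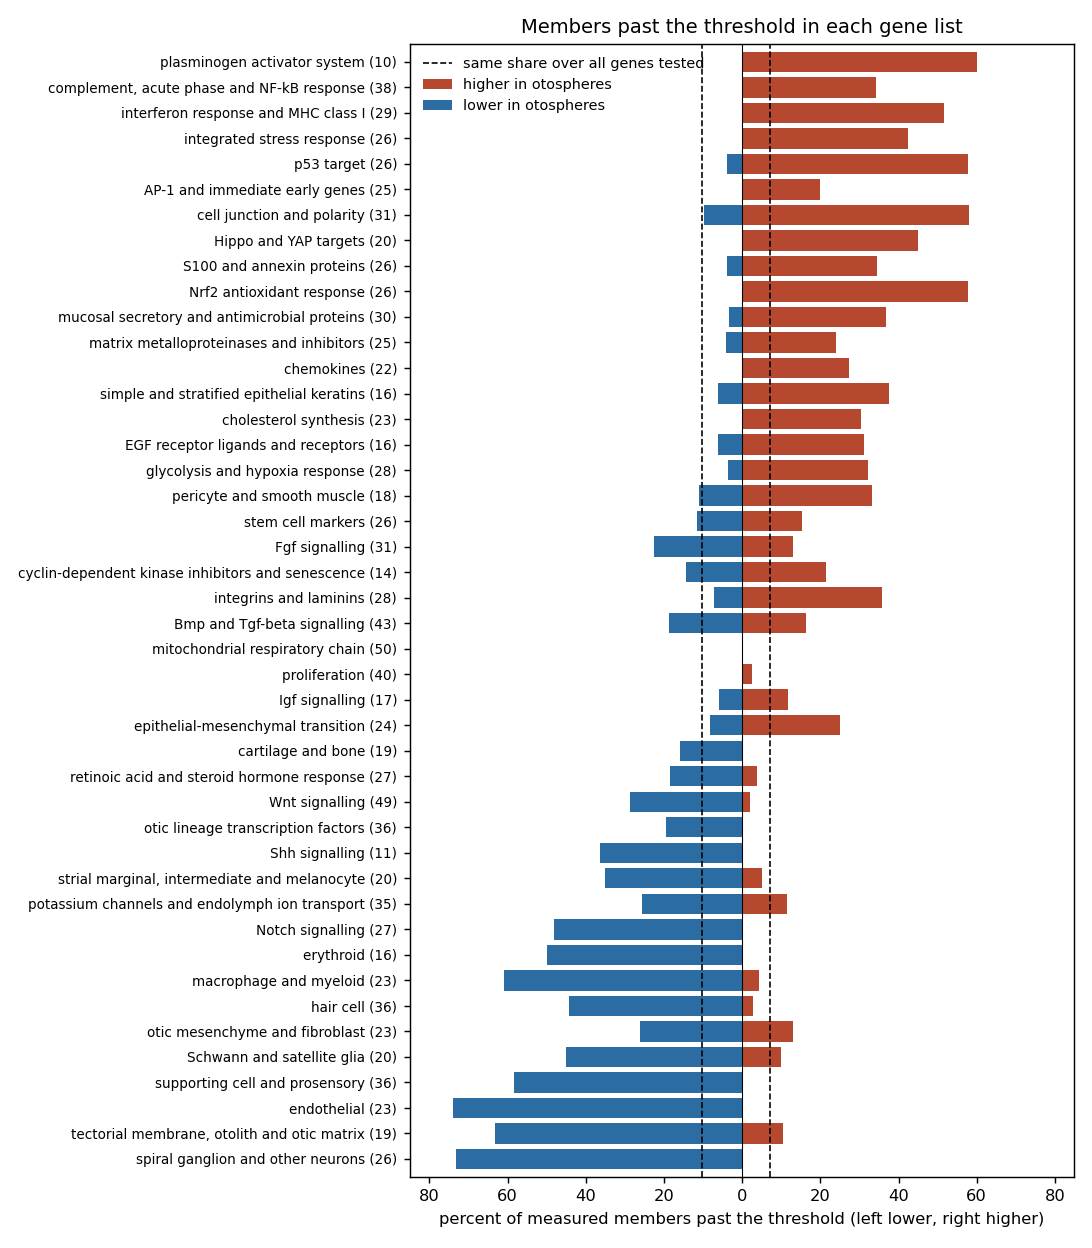
For each of the 44 gene lists, ordered by the median difference of its members, the bar to the right gives the percent of measured members that rose in otospheres and the bar to the left the percent that fell, with the number of measured members in brackets. Dashed lines mark the shares over all genes tested, 7.14% higher and 10.3% lower.

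Among hair cell genes, 16 of 36 fell (44.4%), 1 rose and 19 did not pass, with a median of -1.31. The falls included Rasd2, a small GTPase (-3.54, adjusted p = 0.00624), Ush1c, the scaffold harmonin of the hair bundle (-3.54, adjusted p = 0.00221), Grxcr1 (-2.95), Chrna10 and Chrna9, subunits of the receptor through which efferent fibres act (-2.64 and -2.34), and Cib2 (-2.23), a partner of the transduction channel. Ush1c had 8.38, 8.37, 10.06 and 9.95 in otospheres against 12.27, 13.29 and 12.62 in CSE. Both slide 2 samples were thus nearer to CSE, and the difference was -4.41 within slide 1 and -2.61 within slide 2. Otof, the synaptic calcium sensor otoferlin, was at 9.90 to 11.33 in otospheres and 11.73 to 12.30 in CSE, and its call at -1.26 (adjusted p = 0.0491) was lost in 8 of the 9 fits without a sample. Ocm, the calcium buffer oncomodulin of outer hair cells, was the single rise. It had 9.97, 11.58, 11.91 and 12.02 in otospheres against 8.06, 6.97 and 8.88 in CSE, a difference of 3.40 (SE 0.56, adjusted p = 0.00545), and its other probe differed in the same direction. Hair cell counts moved with the samples used: 10 fell without OS1 with OS2, 10 without CSE1, 9 without CSE2 and 9 without CSE3, while the median stayed between -1.42 and -1.20. As means over the list, relative to each gene's mean over the 7 samples, OS3 stood lowest at -1.41 and OS6 highest of the otospheres at 0.20, and the CSE samples at 0.62 to 0.98.

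Supporting cell and prosensory genes had 21 of 36 lower (58.3%), 0 higher and a median of -2.21. Besides Hes5, Bmp4, a morphogen of the outer epithelium, had 9.24, 8.91, 9.50 and 8.64 in otospheres against 13.21, 12.98 and 13.35 in CSE (-4.11, SE 0.22, adjusted p = 3.19e-05), although its dimmer second probe differed by -0.24. Gjb6, connexin 30 of the supporting cell network, fell by 4.11 (adjusted p = 8.74e-04), Fgfr3, the FGF receptor of pillar and Deiters' cells, by 3.91 (adjusted p = 1.34e-04), and Ednrb, the endothelin receptor B, by 4.27 (adjusted p = 0.00113). Sox2, the prosensory factor by which otospheres are often recognised, had 7.95, 7.67, 8.74 and 8.56 in otospheres and 10.92, 10.85 and 11.20 in CSE. All otosphere samples were lower, by 2.76 on average (SE 0.27, adjusted p = 4.24e-04), and Sox2 stayed well above background on every array. Lgr5, the Wnt co-receptor of supporting cells with progenitor capacity, was at 7.80 to 9.56 against 11.20 to 11.29 (-2.69, adjusted p = 0.00368). Prox1, a factor of supporting cells, was well above background on none of the otosphere arrays and was at least 3.33-fold lower. Cdkn1b, the inhibitor p27Kip1 that keeps supporting cells out of the cycle, differed by -0.56 (95% interval -1.11 to -0.01, adjusted p = 0.21), with OS4 with OS5 at 13.19 inside the CSE range of 13.11 to 13.34. Hes1, another Notch effector, differed by 0.71 (95% interval -0.04 to 1.46, adjusted p = 0.255).

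Proteins of the tectorial membrane and of the otic matrix, which non-sensory and supporting cells secrete, had 12 of 19 members lower (63.2%), 2 higher and a median of -2.67. Tectb, the tectorin beta of the striated sheet, had 9.40, 9.08, 13.03 and 10.60 in otospheres against 16.43, 16.10 and 16.68 in CSE, a difference of -5.88 (SE 0.81, adjusted p = 0.00234). OS4 with OS5 was the nearest to CSE and still more than 3 units below. Oc90, otoconin 90 of the otic matrix, had 9.19, 5.92, 10.61 and 9.96 in otospheres against 17.72, 17.45 and 17.77 in CSE (-8.72, SE 0.98, adjusted p = 8.46e-04), with OS3 the lowest. Tecta, tectorin alpha, fell by 2.67 (adjusted p = 0.00429), Otog, otogelin, by 4.10 and Coch, cochlin, by 4.79 (adjusted p = 0.00117). Otoa and Otogl, which encode otoancorin and otogelin-like, did not pass. Otogl had 7.98 and 7.44 in the slide 1 otospheres but 11.18 and 11.98 in those of slide 2, where CSE3 had 11.93. Its difference was -4.12 within slide 1 and -0.35 within slide 2. Otor, otoraplin, spread from 8.11 in OS6 to 16.10 in OS1 with OS2 (95% interval of the difference -7.62 to -0.44, adjusted p = 0.167). Ceacam16 was not well above background on any CSE array and on 1 otosphere array. The 2 rises were Otol1 (2.04) and Otop1 (1.89).

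The otic identity factors mostly differed downward. Of 36 transcription factors of the otic lineage, 7 fell (19.4%), 0 rose and 29 did not pass (median -0.60). The difference was negative in 30 of the 36, and 13 were lower and 0 higher at an unadjusted p under 0.05 (limma). Eya2, a phosphatase co-factor, fell by 3.18 (adjusted p = 0.00787) with OS6 lowest at 7.47, and Gata3, required for cochlear neurons and sensory epithelium, had 11.69, 11.28, 12.45 and 12.41 against 13.93, 14.24 and 14.01 (-2.10, adjusted p = 0.00467). Isl1 fell by 1.88 (adjusted p = 0.00379), and its difference ranged from -2.32 to -0.19 over the alternative fits. Eya1, at the head of the placodal cascade, did not pass, with 14.79, 14.83, 14.47 and 14.42 in otospheres and 14.88, 14.83 and 14.95 in CSE. Its difference was -0.26 (95% interval -0.62 to 0.10, adjusted p = 0.424). Bmp7, a morphogen of the early otic region, was at 11.98 to 12.14 in otospheres and 12.94 to 13.21 in CSE (95% interval -2.63 to 0.69, adjusted p = 0.549). For Bmp7 the groups did not overlap, but the fit takes the spread over all groups, ESCs included. Without the ESC arrays its adjusted p was 0.00377, which passed.

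Genes of other cell types of the dissected tissue were read next. Neuronal genes had 19 of 26 lower (73.1%), 0 higher and a median of -3.59. The neurofilament genes Nefh, Nefl and Nefm, which build the axonal skeleton, fell by 5.83, 5.48 and 4.66, and Tubb3, the neuronal tubulin, fell too (-4.31, adjusted p = 0.00121). The difference of Nefm ranged from -5.62 to -0.51 over the alternative fits. Tubb3 had 6.95 and 7.03 in the slide 1 otospheres and 8.70 and 8.57 in those of slide 2, against 12.53, 12.59 and 11.27 in CSE. Endothelial genes had 17 of 23 lower (73.9%), 0 higher and a median of -2.34. Cldn5, the claudin of vascular junctions, was at 5.37 to 5.50 in otospheres and at 12.32, 10.80 and 11.93 in CSE (-6.23, adjusted p = 3.80e-05). Ramp3, Cd93 and Robo4, receptors and co-receptors of endothelium, fell by 5.74, 5.79 and 4.63, and Cdh5, VE-cadherin, by 2.62 (adjusted p = 0.009). Pecam1 (-0.56, 95% interval -1.07 to -0.05, adjusted p = 0.174) did not pass, and of the 2 probes of Kdr, the VEGF receptor 2, the brighter did not pass (-0.33) while the other differed by -4.05.

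Macrophage genes had 14 of 23 lower (60.9%) and 1 higher, with a median of -1.21. C1qc, a complement C1q chain of tissue macrophages, had 9.24, 8.81 and 9.23 in CSE and was well above background on none of the otosphere arrays, at least 15.6-fold lower. The mannose receptor Mrc1 was at least 17.8-fold lower under the same condition, and the fractalkine receptor Cx3cr1 fell by 4.66 (adjusted p = 4.97e-06). Over the alternative fits the C1qc difference ranged from -7.16 to -0.52. Ptprc, the pan-leukocyte marker CD45, was dim in both groups, at 5.65 to 5.78 and 5.62 to 5.88 (95% interval -0.41 to 0.41). The single rise was Cd14, an endotoxin co-receptor, with 14.32, 12.92, 12.54 and 10.31 in otospheres against 7.31, 6.42 and 7.34 in CSE (5.50, SE 0.79, adjusted p = 0.00272). The erythroid list had 8 of 16 lower (50%) and 0 higher. Schwann and satellite glia had 9 of 20 lower (45%) and 2 higher, with Fabp7, S100b (-4.12) and Ncmap (-3.47) among the falls. Mbp, myelin basic protein, was called higher (1.90, adjusted p = 0.0155), but its 3 probes differed by -1.25 to 2.38 with calls in both directions. Its call was also lost without CSE1 and without CSE3, with an adjusted p of up to 0.0667.

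Contractile and mesenchymal genes gave a mixed picture. Of 18 pericyte and smooth muscle genes 6 rose (33.3%) and 2 fell. Tagln, transgelin of the actin cytoskeleton, had 14.92, 13.91, 17.75 and 17.69 in otospheres against 10.38, 9.01 and 10.11 in CSE (6.23, SE 0.99, adjusted p = 0.00445). Cnn1, calponin, had 9.41, 8.79, 13.15 and 13.30 against 5.41, 5.24 and 5.19 (5.88, adjusted p = 0.0109), and Rgs5, a regulator of G-protein signalling in pericytes, rose by 3.84 (adjusted p = 5.25e-04). Slide 2 otospheres were more than 2 units above those of slide 1 for Tagln and Cnn1, and the difference for Tagln was 4.72 within slide 1 and 7.61 within slide 2. The pericyte markers Pdgfrb (-0.88, 95% interval -3.91 to 2.15) and Cspg4 (-1.02, adjusted p = 0.205) did not pass. Mesenchymal genes had 6 of 23 lower (26.1%) and 3 higher with a median of -1.40, and depended on the sample: Col3a1, a fibrillar collagen, was at 13.96, 15.59, 11.82 and 6.51 in otospheres against 14.11 to 14.94 in CSE. Pdgfra, the PDGF receptor of fibroblasts, followed the same order, with 10.34, 12.35, 9.21 and 7.36. OS6 was the lowest for both, and the list mean in OS6 was -2.10, against -0.42 to 0.68 in the other otospheres and 0.35 to 0.76 in CSE. Without CSE1, 2 members fell in place of 6. The mesenchymal median was -0.23 within slide 1, -2.27 within slide 2 and -0.64 without OS6. Mfap5, a microfibril protein, rose by 4.90 (adjusted p = 0.00787) and Thy1 by 3.12 (adjusted p = 0.00709).

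Genes of the stria vascularis, which makes the endolymph, and of its melanocytes had 7 of 20 members lower (35%) and 1 higher. Dct, a melanin enzyme, had a mean of 5.41 in otospheres against 12.33, 11.41 and 9.36 in CSE (-5.62, adjusted p = 7.33e-04), and Pmel, a melanosome protein, fell by 2.14. Kcnj10, the potassium channel of intermediate and supporting cells, fell by 2.98 (adjusted p = 8.46e-04) and Slc12a2, a chloride cotransporter of marginal cells, by 2.06 (adjusted p = 0.00803). Cartilage and bone genes had 3 of 19 lower and 0 higher. Col2a1, the cartilage collagen that the otic capsule and the inner ear matrix share, had 13.48, 12.59, 15.94 and 16.19 against 17.86, 17.62 and 18.03 (-3.28, adjusted p = 0.0366), a call that was lost without OS1 with OS2 and without each CSE sample (adjusted p up to 0.123). Over all collagen chains 12 of 41 fell and 5 rose. The rises were Col4a3, Col4a5, Col4a6, Col6a1 and Col6a2, and the falls included Col9a1, Col9a2, Col9a3, Col11a1 and Col11a2, the partners of Col2a1 in thin fibrils. Without CSE1, 7 chains fell, and 3 rose without CSE2 and 2 without CSE3.

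Keratins, the intermediate filaments of epithelia, had 6 of 16 members higher (37.5%), 1 lower and 9 not past the threshold. Krt7 of simple epithelia had 13.86, 12.84, 14.37 and 15.02 in otospheres against 8.30, 8.15 and 8.46 in CSE, a difference of 5.71 (SE 0.49, adjusted p = 2.38e-04). Krt8 was at 15.13 to 17.34 against 10.91 to 12.56 (4.79, adjusted p = 0.00135) and its partner Krt18 at 17.47 to 18.59 against 14.07 to 15.17 (3.75, adjusted p = 8.14e-04). Krt17, a keratin of injured and basal epithelia, had 11.09, 9.36, 13.19 and 14.63 in otospheres against 5.46 to 5.62 (6.52, adjusted p = 0.00517). Signals near 18.59 are at the top of the scale to which all arrays were normalized, so the differences of Wfdc18 and Krt18 may be held down there.

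Of 31 junction and polarity genes 18 rose (58.1%) and 3 fell, with a median of 1.21. Cldn4, a claudin that seals tight epithelia, had 13.17, 11.83, 12.86 and 13.05 in otospheres against 8.51, 8.49 and 9.56 in CSE (3.87, SE 0.44, adjusted p = 8.70e-04). Cldn6 rose by 3.19 (adjusted p = 0.00124), Ocln, occludin, by 1.97 (adjusted p = 0.00541) and Dsp, desmoplakin, by 2.86. Gjb6 and its partner Gjb2 (-1.80), the connexins of the supporting cell network, fell. Cdh1, E-cadherin of epithelial junctions, rose by 1.21 (adjusted p = 0.014, lost without CSE3 at 0.0604), and Cdh2, N-cadherin, fell by 2.54 (adjusted p = 0.00146). Over the alternative fits the Cdh1 difference ranged from 0.12 to 1.75. Tjp1, the scaffold ZO-1, did not pass (-0.38, 95% interval -0.83 to 0.07). Without CSE1 the junction and polarity count was 10 in place of 18. Secretory and antimicrobial genes had 11 of 30 higher (36.7%) and 1 lower. Aqp5, the water channel of glands, had 14.42, 13.46, 13.10 and 12.37 against 9.55, 8.39 and 9.39 (4.23, adjusted p = 9.58e-04).

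Among adhesion genes, Lamb3, a chain of laminin 332 in the epithelial basement membrane, had 11.66, 11.04, 13.18 and 13.55 in otospheres against 6.56, 6.81 and 7.54 in CSE (5.39, SE 0.77, adjusted p = 0.00272). Of the chains of its integrin receptors, Itga3 rose by 3.12 (adjusted p = 0.00185) and Itgb4 by 2.29 (adjusted p = 0.00958). Itgb1 passed in 23 of 24 alternative fits (0.91 to 1.69), but Itga6 passed in 0 (-0.56 to 0.08). Itga8, an integrin of the hair cell apex and of mesenchyme, fell by 2.79 (adjusted p = 0.00395). In all, 10 of 28 integrins and laminins rose (35.7%), 2 fell and 16 did not pass, with a median of 0.10. The plasminogen activator system, which dissolves fibrin and matrix at the cell surface, had the highest median of all lists, 2.78, with 6 of 10 members higher (60%) and 0 lower in the fit and in every fit without a sample. Plaur, the urokinase receptor, had 11.11, 9.67, 11.46 and 12.11 against 6.13, 5.50 and 5.74 (5.30, adjusted p = 3.42e-04). Its ligand Plau, urokinase, was not well above background on any CSE array and was at least 18.2-fold higher. Plat, the tissue-type activator, did not pass (0.40, 95% interval -0.65 to 1.46). S100 and annexin genes, of calcium-binding proteins, had 9 of 26 higher (34.6%) and 1 lower, with S100a6 at a mean of 17.05 against 12.33 (4.72, adjusted p = 2.61e-04) and S100b as the fall.

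Genes of the epithelial-mesenchymal transition had 6 of 24 higher and 2 lower, with 3 rises without OS1 with OS2, OS4 with OS5, CSE1 or CSE2 and 2 without CSE3. The median of these epithelial-mesenchymal transition genes was -0.22, with 0.30 within slide 1, -0.50 within slide 2 and 0.19 without OS6. Matrix metalloproteinases and inhibitors had 6 of 25 higher and 1 lower, with 3 rises without OS1 with OS2, 2 without OS4 with OS5 and 1 without each CSE sample. Of these, Mmp23 rose by 3.03 (adjusted p = 0.00123). Esrp1 and Esrp2, splicing regulators of epithelial cells, rose by 1.81 (adjusted p = 0.00718) and 2.24 (adjusted p = 0.00416). Zeb1, a repressor of E-cadherin, had 9.12, 10.05, 7.57 and 5.45 in otospheres against 10.88, 10.65 and 10.07 in CSE (95% interval -4.61 to -0.37, adjusted p = 0.147). Snai1, another such repressor, had 9.67, 10.44, 7.93 and 5.56 against 9.10, 7.95 and 8.61 (95% interval -2.46 to 2.15, adjusted p = 0.971). OS6 was the lowest for both, as for the mesenchymal genes.

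Of 38 complement, acute phase and NF-kB response genes 13 rose (34.2%), 0 fell and 25 did not pass, and the median was 2.35. Osmr, the receptor of oncostatin M, had 13.20, 13.82, 13.01 and 12.58 in otospheres against 7.67, 7.08 and 7.06 in CSE. It rose in all samples by a similar amount (5.89, SE 0.34, adjusted p = 4.58e-05). Bcl3, an NF-kB co-regulator, had 12.60, 13.48, 11.34 and 9.24 against 7.28, 6.47 and 7.39 (4.62, adjusted p = 0.00921) and Relb, an NF-kB subunit, 10.81 to 11.62 against 8.29 to 9.05 (2.52, adjusted p = 0.00134). C3, the central complement protein, had 15.19, 15.62, 13.30 and 10.19 against 8.78 to 9.47, and its call (4.37, adjusted p = 0.0379) was lost in 8 of the 9 fits without a sample. Hp, haptoglobin, had 13.86, 14.78, 11.26 and 5.69 against 6.66 to 7.67 (95% interval 0.11 to 8.47, adjusted p = 0.21), and Saa1, serum amyloid A, 14.42, 15.58, 11.79 and 8.81 against 8.31 to 8.35 (95% interval 1.25 to 7.40, adjusted p = 0.0817), and neither passed. The order was the same for all 4 of Bcl3, C3, Hp and Saa1: OS3 highest, OS1 with OS2 next, then OS4 with OS5, and OS6 lowest. For the complement, acute phase and NF-kB response list as a whole the mean was 2.28 in OS3 and 2.01 in OS1 with OS2, against -0.94 in OS6 and -1.70 to -1.17 in CSE. Its median was 4.08 within slide 1 and 0.97 within slide 2, and the count of rises was 7 without OS4 with OS5, 25 without OS6, 7 without CSE1, 8 without CSE2 and 8 without CSE3.

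Chemokines, which attract leukocytes, had 6 of 22 higher (27.3%), 0 lower and 16 not past the threshold. Cxcl16 had 11.56, 11.04, 11.74 and 11.69 in otospheres against 7.14, 6.34 and 7.24 in CSE (4.61, SE 0.28, adjusted p = 5.18e-05). Cxcl1, a neutrophil attractant, had 12.87, 13.51, 10.88 and 8.57 against 5.44, 5.28 and 8.07 (5.19, adjusted p = 0.0213), a call lost without OS1 with OS2, without CSE1 and without CSE2 (adjusted p up to 0.0937). The count was 3 without OS1 with OS2, 2 without CSE1 and 2 without CSE2, and the median of 0.85 was 1.87 within slide 1 and 0.09 within slide 2. Interferon response and MHC class I genes had 15 of 29 higher (51.7%), 0 lower, a median of 1.65 and a positive difference in all 29. Ifi202b had 13.57, 13.17, 14.99 and 15.06 against 6.94, 6.28 and 6.01 (7.79, adjusted p = 2.69e-04), H2-K1, a classical MHC class I chain, 14.21 to 15.16 against 10.55 to 11.50 (3.82, adjusted p = 2.49e-04) and Ifi204, a DNA sensor of the same family as Ifi202b, 10.12 to 10.86 against 6.34 to 7.23 (3.89, adjusted p = 0.00108). The H2-K1 difference ranged from 0.39 to 4.21 over the alternative fits. Isg15, a ubiquitin-like interferon product, rose by 1.71 (adjusted p = 0.00478). Irf7 (0.41, 95% interval -0.02 to 0.84), a factor of the interferon response, did not pass.

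Promoters of Lcn2 and Cxcl1 are shown because both genes are textbook targets of NF-kB. They are the 250 bases before the RefSeq start site in GRCm38.p6, at chr2:32387740-32387989 on the minus strand for Lcn2 and at chr5:90890995-90891244 on the plus strand for Cxcl1, written 5′ to 3′ along the gene. Capitals mark matches on either strand to GGGNNNNNCC, a loose form of the NF-kB motif, and in Lcn2 also to the C/EBP motif TTGCNNAA, which is the first of its 2 runs of capitals.
Lcn2: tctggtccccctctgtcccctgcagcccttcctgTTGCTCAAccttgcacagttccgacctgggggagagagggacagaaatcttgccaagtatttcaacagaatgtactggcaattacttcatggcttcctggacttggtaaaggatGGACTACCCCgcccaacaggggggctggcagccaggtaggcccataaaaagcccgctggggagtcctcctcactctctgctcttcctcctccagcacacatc
Cxcl1: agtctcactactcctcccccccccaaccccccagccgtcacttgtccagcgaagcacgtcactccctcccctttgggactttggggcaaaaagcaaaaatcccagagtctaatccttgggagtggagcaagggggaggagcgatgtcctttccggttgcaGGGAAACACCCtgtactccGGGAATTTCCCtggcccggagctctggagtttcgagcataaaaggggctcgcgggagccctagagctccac
In Lcn2 the NF-kB match starts at -102 from the start site. Cxcl1 has 4 matches, which overlap in pairs. Of the 13 risen genes of the complement, acute phase and NF-kB response list, 10 had a window of 300 bases around the start site. All 10 held an NF-kB match in any window, and 3 of the 10 held a C/EBP match. Of the 6 risen chemokines 2 had a window, and 1, Cxcl1, held an NF-kB match. The shares of all 32851 windows, counted singly, were 50.8% for NF-kB and 10.8% for C/EBP. These shares are not like for like with a count of genes.

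Stress responses were read as 3 lists. The p53 targets, which arrest or kill cells with damaged DNA, had 15 of 26 higher (57.7%), 1 lower and a median of 1.28. Fas, a death receptor, had 11.02, 11.29, 10.94 and 10.03 in otospheres against 6.23, 5.81 and 6.22 in CSE (4.73, SE 0.35, adjusted p = 1.19e-04). Ccng1, a cyclin induced by p53, had 12.28 to 12.47 against 10.05 to 10.30 (2.20, adjusted p = 7.20e-04), and Mdm2, which degrades p53, 13.25 to 13.41 against 12.45 to 12.69 (0.77, adjusted p = 0.0079). Spreads within each group were small for Ccng1 and Mdm2 in both groups. Pmaip1 had 10.36, 9.43, 12.49 and 13.42 against 5.10 to 5.53. The p53 target count was 9 without OS4 with OS5 and 9 without CSE1.

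Genes of the integrated stress response, which ATF4 drives when amino acids or protein folding fail, had 11 of 26 higher (42.3%), 0 lower and a median of 1.55. Chac1, which breaks down glutathione, had 12.46, 10.16, 14.61 and 14.72 in otospheres against 8.41, 7.25 and 8.25 in CSE (5.02, SE 0.99, adjusted p = 0.0128). Trib3, a pseudokinase, had 12.86, 11.42, 14.64 and 14.86 against 8.62, 8.08 and 8.80 (4.95, adjusted p = 0.00367). For both, OS3 was the lowest otosphere sample and the slide 2 samples the highest, the reverse of the acute phase order. ATF4 itself (Atf4, 1.25, 95% interval 0.18 to 2.32, adjusted p = 0.147) and Ddit3, the factor CHOP (1.54, adjusted p = 0.0515), did not pass. The integrated stress response count was 19 without OS3, 7 without CSE1 and 7 without CSE2.

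Of 26 antioxidant genes of the Nrf2 response 15 rose (57.7%) and 0 fell, with a median of 1.04. Srxn1, sulfiredoxin, had 13.84, 13.55, 13.20 and 13.15 in otospheres against 10.83, 10.71 and 10.50 in CSE (2.75, SE 0.26, adjusted p = 3.58e-04). Gpx2, a glutathione peroxidase of gut epithelium, rose by 5.83 (adjusted p = 0.00345) and Osgin1 by 3.15 (adjusted p = 7.36e-04), whereas Nqo1 (1.94, 95% interval 0.29 to 3.58, adjusted p = 0.145) and Hmox1 (2.48, 95% interval 0.53 to 4.43, adjusted p = 0.115) did not pass. The Nrf2 antioxidant response count was 8 without OS4 with OS5, 6 without CSE1, 7 without CSE2 and 6 without CSE3. Glycolysis and hypoxia genes had 9 of 28 higher (32.1%) and 1 lower, among them Hk2, hexokinase 2, at a mean of 11.07 against 8.21 (2.86, adjusted p = 2.02e-04), and Adm, adrenomedullin, at 8.69 to 10.86 against 5.74 to 6.78 (3.12, adjusted p = 0.00556). Vegfa rose by 1.60 (adjusted p = 0.00214). Pgk1, an enzyme of glycolysis, did not pass (0.32, 95% interval -0.27 to 0.92). Cholesterol synthesis had 7 of 23 higher (30.4%) and 0 lower. The glycolysis and hypoxia response count was 5 without CSE3, and that of cholesterol synthesis was 4.

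Proliferation genes did not move as a group. Of 40 measured, 1 rose and 0 fell, and the median was 0.01. The rise was Ccnd1, cyclin D1, which growth factors induce, with 15.12, 14.43, 15.12 and 14.85 in otospheres against 13.05, 12.95 and 13.11 in CSE (1.84, SE 0.20, adjusted p = 7.43e-04). Mki67, the nuclear antigen of dividing cells, had 12.99, 12.07, 10.55 and 8.21 against 12.26, 12.08 and 11.51 (-0.99, 95% interval -3.42 to 1.44, adjusted p = 0.719). Cdk1, which drives mitosis, ranged from 7.52 in OS6 to 11.06 in OS1 with OS2 against 9.12 to 9.51 (95% interval -1.51 to 1.68). Otosphere samples thus lay on both sides of CSE, OS1 with OS2 above and OS6 below. The list mean ranged from -1.47 in OS6 to 1.43 in OS1 with OS2, against -0.17 to 0.29 in CSE, and the median was 0.86 within slide 1 and -0.84 within slide 2.

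Among the inhibitors of the cycle, Cdkn2b, p15 of the TGF-beta and senescence response, had 12.76, 12.87, 11.67 and 11.04 in otospheres against 7.49, 6.51 and 6.98 in CSE (5.10, SE 0.55, adjusted p = 7.27e-04). Cdkn1c, p57, was at 11.78, 11.89, 13.21 and 14.54 against 15.60 to 15.89 (-2.90, adjusted p = 0.0157), a call lost without each CSE sample in turn (adjusted p up to 0.063). These 2 inhibitors moved in opposite directions. In the whole list of cyclin-dependent kinase inhibitors and senescence genes 3 of 14 rose (5 without OS6) and 2 fell (1 without OS3 or OS4 with OS5, and 0 without each CSE sample). The median of these cyclin-dependent kinase inhibitors and senescence genes was 0.16, with 1.05 within slide 1 and -0.55 within slide 2.

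Notch signalling had 13 of 27 genes lower (48.1%), 0 higher and a median of -0.92. In this pathway ligands on a cell activate receptors on its neighbour, whose freed domain joins RBPJ to switch on Hes and Hey repressors. Ligands and modifiers that fell were Jag1, Jag2 (-1.57), Dll3 (-0.92), and the fringe enzymes Lfng (-2.58), Rfng (-0.87) and Mfng, whose call (-3.55, adjusted p = 0.0139) was lost without CSE1 and without CSE3 (adjusted p up to 0.0604). Dll1, a ligand of nascent hair cells, did not pass (0.17, 95% interval -0.45 to 0.78), nor did the receptor Notch1 (-0.24, 95% interval -1.55 to 1.06). The effectors Hey1 (-3.12, adjusted p = 1.25e-04), Heyl (-3.73, adjusted p = 1.86e-04) and Hey2 (-2.31) fell beside Hes5. Hey1 had 9.66, 9.76, 9.93 and 9.03 in otospheres against 12.91, 12.54 and 12.69 in CSE. The Notch signalling median was -0.90 within slide 1 and -1.12 within slide 2.

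The promoter of Hes5 is shown for its matches to TGGGAA, the core of the RBPJ motif, marked in capitals where it occurs on either strand in the 250 bases before the start site (GRCm38.p6, chr4:154960673-154960922, plus strand).
Hes5: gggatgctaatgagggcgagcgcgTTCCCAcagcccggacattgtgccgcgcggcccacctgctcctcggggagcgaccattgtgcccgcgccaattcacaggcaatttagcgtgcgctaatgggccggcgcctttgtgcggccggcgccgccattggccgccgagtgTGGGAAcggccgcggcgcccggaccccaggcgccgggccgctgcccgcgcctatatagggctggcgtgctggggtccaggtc
It held 2 matches, on opposite strands. Of the 13 Notch genes that fell, 10 had a promoter window, and 4 of them, Hes5, Hey2, Lfng and Rbpj, held the motif in any window. The share of all windows, counted singly, was 25.6%, which is not like for like with a count of genes.

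In the Wnt pathway, in which Frizzled receptors stabilise beta-catenin, 14 of 49 genes fell (28.6%) and 1 rose (Wnt7b, 1.61), with a median of -0.58. The receptor Fzd9 had 9.01, 8.57, 9.70 and 8.32 in otospheres against 13.86, 13.37 and 14.43 in CSE (-4.99, SE 0.36, adjusted p = 1.13e-04), next to Fzd10. The secreted Dickkopf family proteins Dkk3 (-4.37, adjusted p = 5.70e-04) and Dkk2 (-3.37) fell too. Axin2, a feedback target that reports beta-catenin activity, had 7.09, 7.40, 7.07 and 6.73 against 9.29, 9.17 and 9.31 (-2.19, SE 0.25, adjusted p = 8.65e-04), and its second probe differed by -0.59. Lef1, a nuclear partner of beta-catenin, was spread from 5.18 in OS6 to 9.58 in OS1 with OS2 against 10.96 to 11.59 (adjusted p = 0.0853). The Wnt signalling count was 9 without CSE3.

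Fgf, Hedgehog and retinoid genes included further falls. Of 31 Fgf genes 7 fell and 4 rose. Fgf10, a ligand of the cochlear duct and inner hair cells, had 6.87 to 8.07 in otospheres against 11.12 to 11.50 in CSE (-3.67, SE 0.32, adjusted p = 2.49e-04). Over the alternative fits its difference ranged from -4.17 to -0.38. Fgfr4 fell by 4.64 (adjusted p = 0.00646). Fgfr1, the receptor through which bFGF of the medium acts on many cells, did not pass (-0.39, 95% interval -0.79 to 0.01), nor did the FGF target Dusp6 (-0.38, 95% interval -1.54 to 0.78). The 4 rises were Fgfbp1, Dusp4, Dusp5 and Fgf5, and the Fgf signalling count of rises was 2 without OS1 with OS2, 1 without OS4 with OS5, 2 without OS6, 1 without CSE1 and 1 without CSE2. Hhip, a Hedgehog target and inhibitor, was at 5.41 to 5.74 against 8.49 to 9.08 (-3.30, adjusted p = 2.57e-04). Of the 11 Shh signalling genes 4 fell, but 2 did without OS4 with OS5, CSE1, CSE2 or CSE3. Retinoic acid and steroid hormone genes had 5 of 27 lower and 1 higher. Beside Crabp1, the retinoic acid-degrading enzyme Cyp26b1 fell by 4.07 (adjusted p = 0.00823) and Thrb, the thyroid hormone receptor that times cochlear maturation, had 7.76, 7.62, 8.97 and 9.57 against 11.30, 11.21 and 11.97 (-3.01, adjusted p = 0.00395).

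Bmp and TGF-beta genes divided, with 7 of 43 higher and 8 lower. Bmp4 and the Bmp targets Id1, Id2 and Id3 (-3.04, -2.51 and -2.90) fell, while Tgfb1 (1.39, adjusted p = 0.00947), Inhbb (2.67) and Fstl3, an activin antagonist (3.30, adjusted p = 8.63e-04), rose. The difference of Tgfb1 ranged from 0.15 to 1.71 over the alternative fits. The Bmp and Tgf-beta signalling falls numbered 5 without CSE1 and 5 without CSE3. EGF receptor genes had 5 of 16 higher, although no EGF was listed for the medium. The ligand Areg, amphiregulin, had 7.42, 8.39, 6.76 and 6.74 in otospheres and was not well above background on any CSE array, at least 4.56-fold higher. Nrg1, neuregulin 1, rose by 2.12 (adjusted p = 0.0147). Egfr had 10.59, 10.73, 11.71 and 11.37 against a CSE mean of 9.44 (1.66, adjusted p = 0.0198), a call lost without OS4 with OS5 and without each CSE sample (adjusted p up to 0.0895). The EGF receptor ligands and receptors count was 3 without CSE1 and 3 without CSE2. Of 17 Igf genes 2 rose (11.8%) and 1 fell (5.88%). Igf1r, the receptor for the IGF1 of the medium, did not pass (-0.45, 95% interval -1.39 to 0.48), and Igf1 itself had 11.23, 12.69, 10.52 and 7.61 against 13.33 to 13.38 (95% interval -5.02 to -0.66, adjusted p = 0.106).

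Hippo and YAP targets, which rise when cells are stretched or leave confluence, had 9 of 20 higher (45%), 0 lower and a median of 1.17. Beside Ankrd1, F3, the tissue factor that starts clotting, had 14.69, 14.77, 14.92 and 14.66 in otospheres against 9.93, 9.51 and 10.06 in CSE. The otosphere samples differed by less than 0.3 among themselves, and the rise was 4.93 (SE 0.23, adjusted p = 1.44e-05). Ccn2, connective tissue growth factor, had 14.72, 14.08, 17.23 and 17.06 against 12.03, 11.01 and 13.53 (3.58, adjusted p = 0.0305), a call lost without OS4 with OS5, OS6, CSE1 or CSE2 (adjusted p up to 0.109). Ccn1, its relative, did not pass (3.40, adjusted p = 0.0583), with CSE3 at 12.85 above the 12.55 of OS3. It passed in 6 of 24 alternative fits, among them that without CSE3 (4.61, adjusted p = 0.0103). CSE3 is its highest CSE sample, so leaving it out must raise the difference. The Hippo and YAP targets count was 5 without CSE1. Ankrd1 is shown with the TEAD motif GGAATG, the site through which YAP acts, in capitals, in the 250 bases before its start site (GRCm38.p6, chr19:36119845-36120094, minus strand).
Ankrd1: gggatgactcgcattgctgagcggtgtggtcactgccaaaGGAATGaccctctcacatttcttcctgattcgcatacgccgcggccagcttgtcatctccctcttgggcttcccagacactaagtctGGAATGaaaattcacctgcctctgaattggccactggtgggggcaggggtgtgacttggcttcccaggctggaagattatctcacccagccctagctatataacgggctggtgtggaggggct
It held 2 matches on the gene's strand. Of the 9 risen genes of the list 6 had a promoter window, and 4 of these, Ankrd1, Ajuba, Ptpn14 and Vgll3, held the motif in any window. The share of all windows, counted singly, was 14.7%, which is not like for like with a count of genes.

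Immediate early genes are the point at which the CSE samples stood apart. Fos had 6.91 and 5.57 in CSE1 and CSE2 but 13.84 in CSE3, against 11.95, 10.66, 11.31 and 10.01 in otospheres. Egr1 (10.66, 9.71 and 14.67) and Jun (11.73, 11.65 and 15.27) had the same order in CSE. CSE3 was thus above every otosphere sample for Fos and Egr1, and the other 2 CSE samples below them. The difference for Fos was 5.06 within slide 1 and -3.19 within slide 2, with 2.21 over both (95% interval -1.61 to 6.03, adjusted p = 0.557). CSE3 was also the highest CSE sample for Cxcl1, Cebpb, Cebpd, Ccn1, Ccn2 and Ier3. Leaving out the highest CSE sample must raise the difference of such genes, so nothing is read from that increase. Without CSE3 the differences were 6.10 for Cxcl1, 3.71 for Cebpb, 4.61 for Ccn1, 4.26 for Ccn2 and 4.77 for Ier3. Ccn1 then passed (adjusted p = 0.0103). The list of AP-1 and immediate early genes had a mean of 1.11 in CSE3, against -1.76 and -1.27 in the other CSE samples and -0.08 to 0.88 in otospheres. Of its 25 members 5 rose (11 without CSE3), and 0 fell. Fosl2, Fosl1, Ier3 and Junb passed in every fit without a sample. Fosl1, the AP-1 subunit Fra-1, had 8.29, 7.84, 8.24 and 8.36 against 5.88, 5.34 and 5.88 (2.48, SE 0.22, adjusted p = 2.69e-04).

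**Figure D4:**
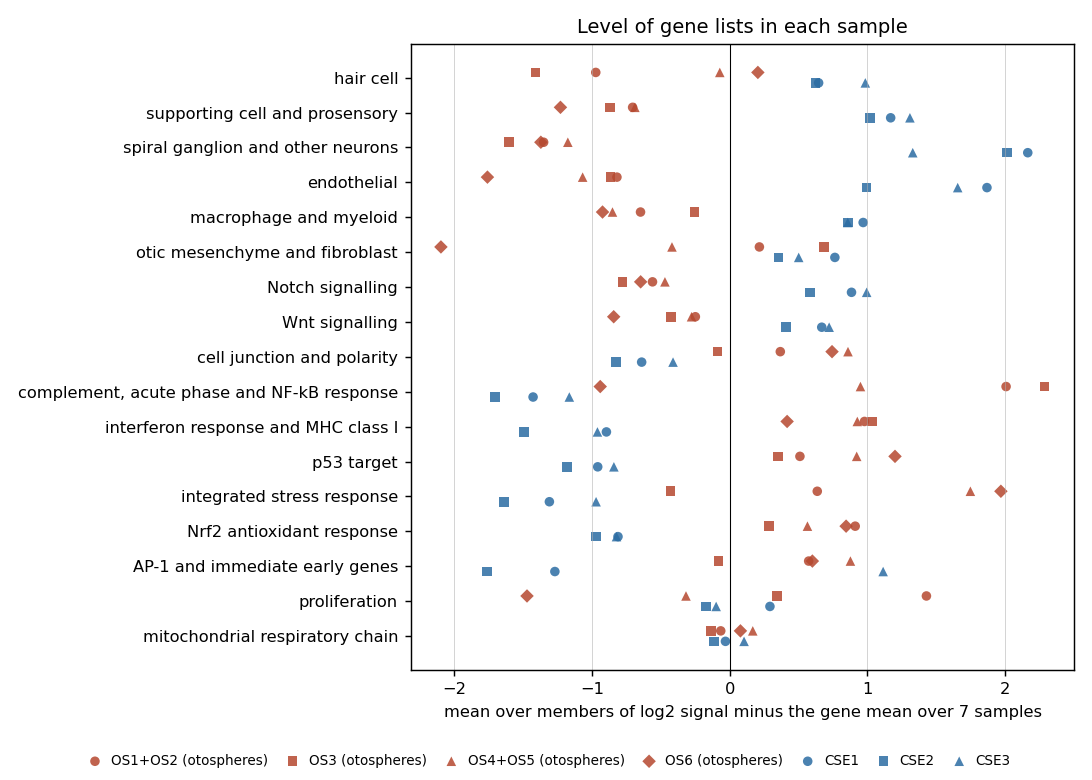
For 17 gene lists, each point is the mean over members of the log2 signal, centred on each gene's average across the 7 samples, for the 4 otosphere samples and the 3 CSE samples. The hair cell, supporting cell, neuronal, endothelial, macrophage, Notch and Wnt lists lie lower in every otosphere sample than in CSE. The junction, interferon, p53, integrated stress response and Nrf2 lists lie higher, as do complement and acute phase genes, where OS6 (-0.94) is near CSE. The lists were chosen with earlier results of these data known, so nothing is read from these gaps. OS6 lies far below all samples for mesenchyme (-2.10), and CSE3 above the otospheres for immediate early genes (1.11).

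Transcription factors were read by family. Of 569 in all transcription factor families, 45 rose (7.91%) and 76 fell (13.4%), close to the shares over all genes. The rises numbered 28 without OS4 with OS5 and 27 without CSE1, and the falls 44 without CSE1 and 48 without CSE3. Rises were denser among bZIP factors, with 13 of 48 higher (27.1%) and 1 lower, and among Stat, Irf and NF-kB factors, with 10 of 30 higher (33.3%) and 1 lower. Falls were denser among bHLH factors, with 21 of 84 lower (25%) and 4 higher, among POU factors, with 5 of 14 lower and 0 higher, and among Sox factors, with 7 of 19 lower (36.8%), 0 higher and a negative difference in all but 1. The POU falls numbered 2 without CSE1 and 3 without CSE3, and the bHLH rises 2 without OS1 with OS2, OS4 with OS5 or CSE3. All 31 measured Hox factors, which set position along the body, did not pass (1 lower at an unadjusted p under 0.05).

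Fosl2, the AP-1 subunit Fra-2, had log2 signals of 12.59, 12.34, 13.20 and 13.31 in otospheres against 8.56, 7.11 and 9.13 in CSE (4.59, SE 0.49, adjusted p = 6.43e-04), and its second probe differed by 1.33. Bcl6, a repressor, had 11.79, 12.39, 11.34 and 11.13 against a CSE mean of 7.73 (3.93, adjusted p = 0.00123). Cebpb, of the acute phase and stress responses, had 13.87, 14.02, 13.27 and 12.89 against 9.90, 9.70 and 11.06 (3.29, adjusted p = 9.88e-04). Elf3, an ETS factor of epithelia, rose by 3.11 (adjusted p = 4.17e-04), Nfe2l2, Nrf2 itself, by 2.75 (adjusted p = 0.00156), Bhlhe40 by 2.86 (adjusted p = 0.00644) and Nfil3 by 2.52 (adjusted p = 0.0086). Cebpd (3.70, adjusted p = 0.025) was lost without OS1 with OS2, OS3, OS4 with OS5, CSE1 or CSE2 (adjusted p up to 0.1).

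On the other side, Scrt1, a repressor of the neuronal lineage, had 5.91, 5.67, 5.70 and 5.83 in otospheres against 11.33, 10.44 and 9.78 in CSE (-4.74, SE 0.32, adjusted p = 8.70e-05). Fli1 of endothelium and blood fell by 3.84 (adjusted p = 0.00146), with OS6 at 4.87 and the others at 6.78 to 6.93. The estrogen-related receptors Esrrg and Esrrb fell by 3.73 (adjusted p = 0.00134) and 3.52 (adjusted p = 0.00407). CSE3 was the lowest CSE sample for both, at 8.06 and 8.35, and for Scrt1. Nkx6-1 (-3.25, adjusted p = 0.0122), Sp5 (-3.25, adjusted p = 0.0333) and Gli1 (-3.40, adjusted p = 0.0348) each lost the call without CSE1 and without CSE3, and Sp5 and Gli1 also without CSE2 and OS4 with OS5, and Gli1 without OS1 with OS2 and without OS6. Their highest adjusted p without a sample was 0.0601, 0.111 and 0.111.

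**Figure D5:**
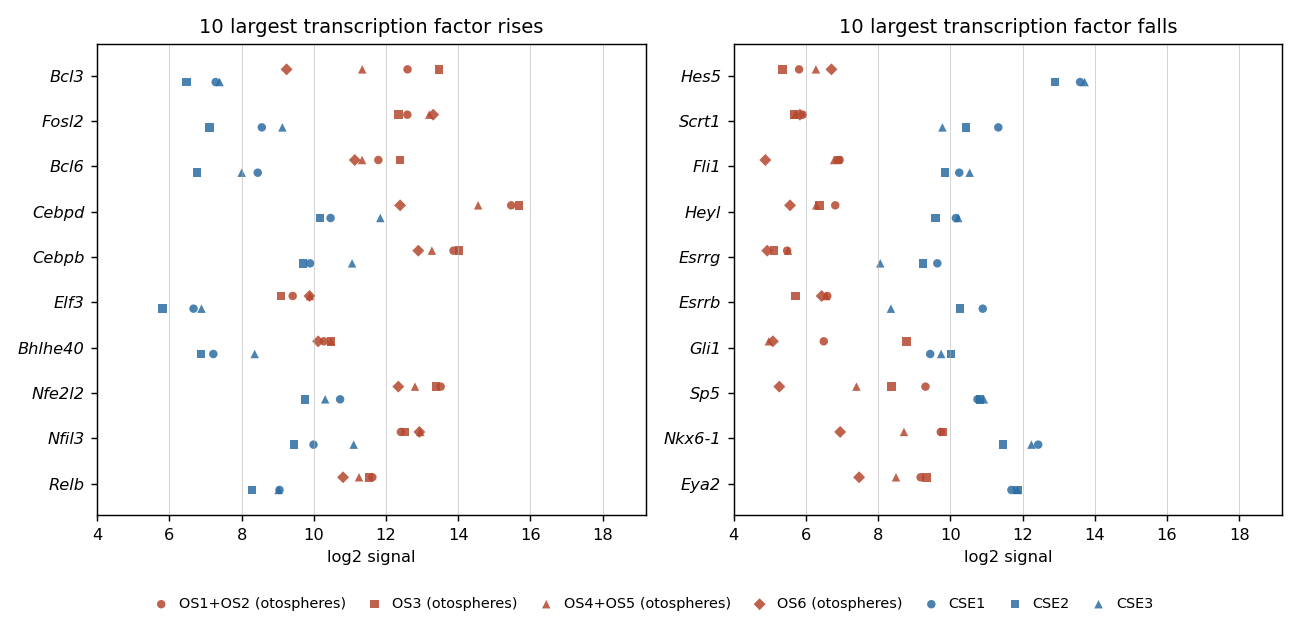
Log2 signal of the 10 transcription factors with the largest rises (left) and falls (right), with a point for each of the 4 otosphere samples and the 3 CSE samples. The factors were chosen among those whose groups do not overlap, so nothing is read from the gap itself. Over all genes, 14.1% do not overlap with otospheres higher and 19% with otospheres lower. Sp5, Nkx6-1 and Eya2 are lowest in OS6.

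Stem cell markers of other tissues had 4 of 26 higher and 3 lower, and 2 higher without OS4 with OS5 or CSE2. Ly6a, the surface antigen Sca-1, had 12.68, 11.36, 13.42 and 14.41 in otospheres against 7.11, 6.30 and 7.08 in CSE (6.14, SE 0.68, adjusted p = 8.15e-04). Lin28b, an RNA-binding protein of early development, was at 4.99 to 6.14 against 7.91 to 9.02 (-2.62, adjusted p = 0.0132, lost without CSE2 at 0.0514). Prom1 (0.35, 95% interval -1.39 to 2.09), Abcg2 (-0.54, 95% interval -1.43 to 0.35) and Msi1 (0.28, 95% interval -0.39 to 0.95) did not pass. Potassium channels and transporters of the endolymph had 9 of 35 lower (25.7%) and 4 higher, and 3 to 5 of them fell when OS1 with OS2, OS4 with OS5 or any CSE sample was left out. The rises among potassium channels and endolymph ion transport numbered 2 without OS4 with OS5, CSE1 or CSE2.

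Housekeeping groups had 0 calls. Of 50 subunits of the mitochondrial respiratory chain, 0 rose and 0 fell, with differences from -0.55 to 0.68 and a median of 0.02, and 3 were higher and 3 lower at an unadjusted p under 0.05. Of 74 cytosolic ribosomal proteins 0 rose and 0 fell (limma), with a median of -0.16 a negative difference in 67, and 3 lower at an unadjusted p under 0.05. Olfactory and vomeronasal receptors, which sense odours and pheromones in the nose, had 6 of 684 called higher (0.877%) and 0 lower. Without a single otosphere or CSE sample other than OS3 that count of olfactory and vomeronasal receptors was 2 or 3.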

How the data were processed

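Total RNA of otospheres, cochlear sensory epithelium (CSE) and embryonic stem cells (ESCs) was hybridised to 11 1-colour arrays on 2 slides. Per the file headers the deposited intensity values, median pixel signals of spots and their surroundings, came from Feature Extraction 10.7.3.1 and were not normalized between arrays. A second deposited file holds the authors' log2 values, background-corrected, quantile-normalized and filtered on dim probes, which served as an alternative. Its background method was not given in the sources used here.

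From the intensities, background was corrected by normexp with an offset of 16, arrays were quantile-normalized, log2 was taken, spots with outlier flags were dropped and spots of a probe were averaged. Of 55681 probes 47997 were kept: on 2 or more arrays they exceeded by 10% a limit under which 95% of the 308 negative controls lay. Near-identical arrays were averaged, leaving 4 otosphere, 3 CSE and 2 ESC samples. One limma model (limma 3.58.1, R 4.3.3) over the 3 groups gave the otosphere minus CSE difference, its moderated test and Benjamini-Hochberg adjusted p over all kept probes, called under 0.05. The labels do not tie the samples of a group to separate preparations, and the study's methods speak of technical duplicates without naming the arrays, so p-values measure the spread between these samples, which may be partly technical. The number of arrays limits the precision.

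RefSeq accessions named 26762 probes (20284 symbols), and each of 18565 genes was read from its brightest kept probe. Named were the 15 largest rises and falls among genes whose groups did not overlap. The 10 largest in each direction among transcription factors were taken by the same rule. Also named were the defining members of each list with up to 4 of its largest changes, and the 5 brightest genes detected in 1 group only. The members and the 44 gene lists were chosen with earlier results of these data known, and the patterns of the other homeobox and bHLH families were tightened after symbols of other proteins had matched. Alternatives changed the offset, normalization, source of values, filter, samples, slide, pairing, test and choice of probe. Simulated data of 47958 probes had far fewer changed probes than were called here, independent normal noise and no slide effect. On these the test called 20.9%, 70.1% and 87.9% of probes changed by 1, 2 and 4 log2 units, with 13 false calls. The adjusted p depends on how many probes change, so these rates do not carry over to the real comparison. Some genes of the lists are counted but their values are not reported here.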

Additional observations from a re-analysis of the deposited data

Results flagged for a closer look

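Among 382 genes and list means examined over the 4 otosphere samples, 14 had 1 sample far from the other 3. Chance flags about 1 in 20 groups, a rate above the share flagged here. The flags below therefore only describe values, and none is read as a trait of a sample.

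OS6 stood apart for 6 of them. Lcn2, the iron-binding lipocalin, was at a log2 signal of 13.69 in OS6 and at 18.07 to 18.32 elsewhere. Dkk3, a secreted protein of the Dickkopf family, was at 9.81 against 11.15 to 11.23, Fli1, an ETS factor, at 4.87 against 6.78 to 6.93, and Smo, the hedgehog signal transducer, at 12.53 against 13.09 to 13.15. The mean of the interferon response and MHC class I list was 0.416 in OS6 and 0.93 to 1.03 in the other samples, and that of the Bmp and Tgf-beta signalling list was -0.485 against 0.14 to 0.18.

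OS3 was lowest for 5 genes. Cdh1, the epithelial cadherin, was at 12.38 against 13.05 to 13.17, and Krt18, a simple epithelial keratin, at 17.47 against 18.51 to 18.59. Itga3, an integrin chain, had 10.69 against 11.69 to 11.89, Wfdc18 had 18.13 against 18.56 to 18.59, and Nefl, a neurofilament subunit, had 5.73 against 7.61 to 7.84.

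In OS4 with OS5, Hes1, a Notch target, was at 7.87 against 8.24 to 8.29, and Robo4, an endothelial receptor, at 5.44 against 4.99 to 5.05. In OS1 with OS2, Col10a1, a collagen chain, was at 5.27 against 4.93 to 4.95.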

How the results depend on the processing

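The main setting called 2321 probes higher and 2973 lower in otospheres. Treating every array as a separate sample gave 3682 higher. Within slide 1 the counts were 1043 and 1341, and within slide 2, with 1 CSE array assumed to vary like the other groups, 1811 were lower. Leaving out 1 sample gave 1281 higher (without CSE1) to 2629 (without OS3), and 1664 lower (without CSE1) to 3340 (without either ESC array). The counts of the other alternatives were within 1.5 times the main ones, and the share of calls that were higher was 43.8% in the main setting and 39.7% with processed intensities scaled to the 75th percentile. Under at least 1 alternative the sign of the difference changed for 18 of 71 medians of lists and families and 36 of 311 named genes. Beyond that spread or past the threshold, the median difference of the Fgf signalling list changed sign with an offset of 50 (-0.00402), with the deposited table (-0.0753) and within slide 2 (-0.36), the difference of Fos within slide 2 (-3.19), and that of Top2a with the replicate block (1.26). The cause was not tested. Among the named genes and without a change of direction, 52 lost the call within slide 1, 44 without CSE1 and at most 38 under any other alternative. The replicate block over OS1 to OS3 and CSE1 to CSE3 gave 2027 higher and 2477 lower, and the same 6 arrays without the block, a setting chosen after seeing the data, 3235 and 3819. Deviations of same-numbered arrays correlated at 0.366, -0.567 and -0.358, so the numbers were not taken to pair the samples. Of signal over background, a probe near background on every array of a group has only a bound there.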

Other observations

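Serpins, inhibitors of serine proteases, moved in both directions, with 13 of 50 higher and 4 lower. Serpinb1a, an inhibitor of neutrophil proteases, rose by 5.33 (SE 0.381, adjusted p by limma 0.000109), and Serpini1, the neuronal serpin, fell by 4.83 (SE 0.655, adjusted p by limma 0.00212). Of the TNF receptor superfamily 6 of 19 rose and 0 fell (limma), with 1 lower at an unadjusted p under 0.05. Tnfrsf12a, the receptor of the cytokine Tweak, rose by 4.37 and Tnfrsf11b, the decoy receptor osteoprotegerin, by 4.32.

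Interleukin and cytokine receptors had 10 of 41 higher and 3 lower. Il18r1, the receptor of interleukin 18, rose by 2.85 (SE 0.402, adjusted p by limma 0.00251) and Il6ra, that of interleukin 6, by 2.38 (SE 0.307, adjusted p by limma 0.00167). The 3 falls were Csf1r, Il11ra1 and Il10ra. Of these interleukin and cytokine receptors 0 were called lower without OS1 with OS2, CSE1 or CSE3, 1 without OS3, OS4 with OS5 or CSE2, and 2 without OS6.

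Of 311 solute carriers 32 rose and 40 fell. Slc47a2, an organic cation exporter, rose by 4.37 (SE 0.350, adjusted p by limma 0.000186). The rises among solute carriers numbered 18 without OS4 with OS5, 17 without CSE1, 18 without CSE2 and 19 without CSE3, and the falls 22 without CSE1 and 23 without CSE3.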
